A study of Homo sapiens with 16 samples.

Results

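The response of NOMO-1 cells to the FTO inhibitor CS1 was set against their response to an FTO hairpin, gene by gene, as the change from DMSO to CS1 minus the change from the control hairpin to the FTO hairpin. NOMO-1 is a human cell line established from acute monocytic leukaemia. The DMSO libraries (n = 4) and the CS1 libraries (n = 3) came from cells kept for 72 h with the solvent or with 100 nM CS1. The shNS libraries (n = 3) and the shFTO libraries (n = 3) came from cells that carried a lentiviral control hairpin or a hairpin against FTO and had been selected with puromycin at 1 µg/ml for 1 week. These 13 of the 16 libraries of poly(A)-enriched RNA entered the comparison, and the 3 libraries of a further inhibitor, CS2, served only to estimate the spread between replicates, which the series calls biological. Of 26830 entries, 14951 had at least 1 TPM (a share of all transcripts in the library, corrected for transcript length) in at least 3 of the 16 columns, and all 14951 were tested. The compound was given at a single dose and time, the labels do not say how many hairpin sequences were used, and each arm has its own control cells.

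FTO is a demethylase that removes the methyl mark m6A from messenger RNA. The mark is placed by a writer complex built around METTL3 and is bound by reader proteins that alter the stability and translation of the RNA. High FTO is known in some acute myeloid leukaemias, where its targets have been tied to cell growth, glycolysis and blocked differentiation. The labels give CS1 only by its code name; as far as is generally known it is bisantrene, which was not checked here, an anthracene compound developed as a DNA-binding cytotoxic drug. A hairpin lowers the amount of FTO RNA, whereas an inhibitor is meant to block the protein.

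Changes are given on the log2(TPM + 1) scale, which understates the change of genes with low TPM, and values after ± are SD. A positive difference of responses means that the gene stood higher after CS1, relative to DMSO, than after the FTO hairpin, relative to shNS. Adjusted p-values come from limma, fitted to all tested genes with Benjamini-Hochberg adjustment, and a gene was called when its adjusted p was under 0.05. TPM keep no read counts, which leaves the depth of the libraries unknown. Pearson's r between replicates, across genes, was between 0.988 and 0.993. The share of TPM in ribosomal RNA entries was 3.27% ± 1.202 with DMSO, 1.14% ± 0.166 with CS1, 2.70% ± 1.55 in shNS and 3.05% ± 0.449 in shFTO, and that in mitochondrial-like entries (nuclear copies of a mitochondrial ribosomal RNA gene) was 3.52% ± 0.0277, 3.002% ± 0.0269, 3.77% ± 0.0225 and 4.22% ± 0.0841 in the same order. The mitochondrial-like share was lower in every CS1 library than with DMSO and higher in every shFTO library than in shNS. Without both kinds of entry 4131 genes were higher and 3226 lower in the difference of responses; the part of these shares in the results was not tested otherwise. Because TPM are shares of a fixed total, results are also given under other scalings where these change a call or a direction.

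FTO itself (chromosome 16, 53701692 to 54158512, GRCh38) was the check of the hairpin. It stood at 33.3, 33.1, 29.6 and 30.7 TPM with DMSO and 34.95, 35.9 and 31.3 with CS1. In the hairpin cells it stood at 31.3, 30.8 and 32.8 TPM in shNS and 8.12, 7.49 and 8.35 TPM in shFTO. All shFTO libraries lay far below every other library, and the CS1 libraries overlapped the DMSO libraries. FTO had -1.86 with the hairpin and 0.10 with CS1 (adjusted p = 0.141), and its difference of responses was 1.96 (SE 0.082, limma adjusted p = 3.56e-10).

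The responses differed for 7380 of the 14951 genes tested (49.4%). Of these, 4638 (31.0% of all tested) were higher after CS1 and 2742 (18.3%) were lower, and the difference was at least 2-fold for 411 and 250 of them. CS1 raised 5605 genes (37.5%) and lowered 2142 (14.3%) against DMSO. The hairpin raised 4776 genes (31.9%) and lowered 3661 (24.5%) against shNS, 56.4% of the genes together. The CS1 and DMSO libraries did not overlap for 53.9% of all tested genes, nor the shFTO and shNS libraries for 64.7%. Of 5087 genes called in both arms, 3448 moved in the same direction and 1639 in opposite directions. Across all tested genes the responses had a Pearson's r of 0.258 and a Spearman rank correlation of 0.229; this is a description across genes, which are not independent replicates.

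Opposite movement was found in both forms. CS1 raised and the hairpin lowered 1181 genes (7.90% of those tested), and CS1 lowered and the hairpin raised 458 genes (3.06%). Which form was the more frequent depended on the scaling, with 730 and 877 genes under median scaling and 856 and 834 under quantile normalization. In 61 genes, 39 of the first form and 22 of the second, both changes were at least 1.5-fold. A further 560 genes (3.75%) moved in the same direction with a larger change after CS1 and 816 (5.46%) with a larger change after the hairpin. CS1 alone passed for 1789 genes (11.97%) and the hairpin alone for 2384 (15.9%), which does not show that the other arm was without effect. For 192 genes (1.28%) neither arm passed by itself. In 2232 genes both arms were called in the same direction and the 95% interval of the difference lay inside -0.5 to 0.5. This count did not require the difference to be uncalled, so it overlaps the same-direction classes above.

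**Figure D1:**
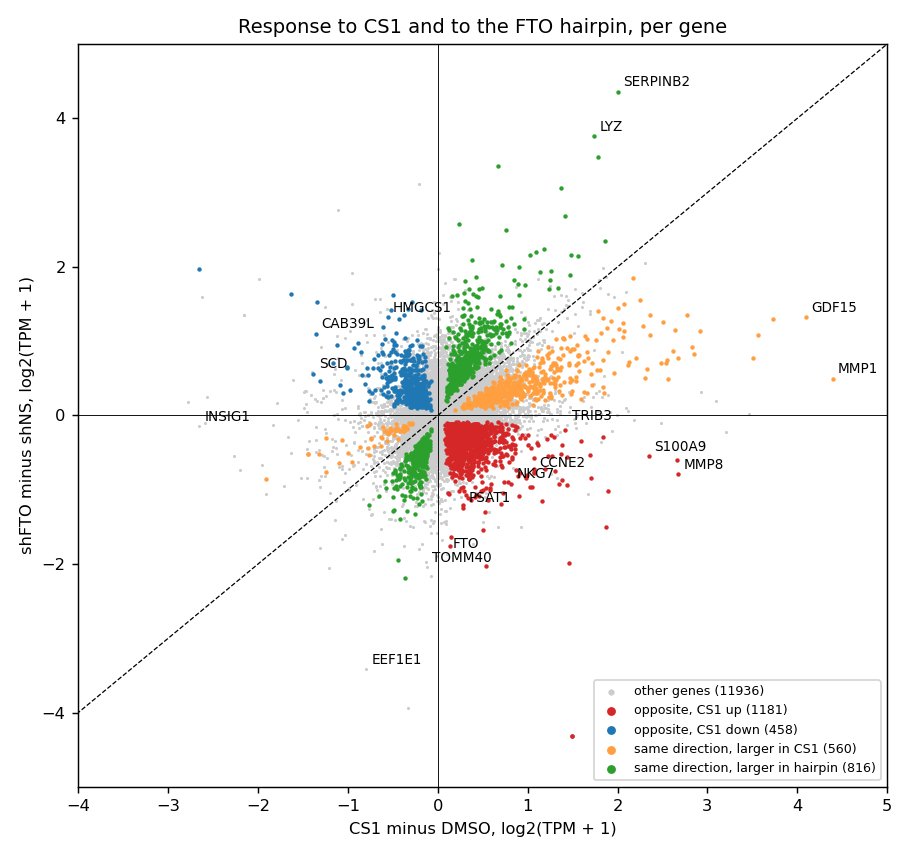
Each point is 1 of the 14951 tested genes, with the log2(TPM + 1) change from DMSO to CS1 on the horizontal axis and from shNS to shFTO on the vertical axis; the dashed line marks equal responses. The 1181 red genes (lower right) rose with CS1 and fell with the hairpin, the 458 blue genes (upper left) did the reverse, and green and orange genes moved in the same direction by unequal amounts.

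The split between higher and lower calls depended on scaling. With every library shifted to a common median, 3756 genes were higher and 4072 lower in the difference of responses, and with quantile normalization 3937 and 3742. For CS1 the same 2 scalings gave 3201 genes up and 5246 down, and 3718 up and 4267 down. For the hairpin they gave 3759 up and 4612 down, and 4069 up and 4398 down. The median of all tested genes was 0.042 for the difference, 0.092 for CS1 and 0.072 for the hairpin, and after median scaling -0.051, -0.086 and -0.013. Of the 7380 differences on the deposited scale, 6119 (82.9%) were called in the same direction under 3 other scalings. These were median scaling, quantile normalization and the scaling without ribosomal RNA and mitochondrial-like entries. The finer classes were less stable, since 491 of 1181 and 288 of 458 genes of the opposite classes held their class under all of them. The starting points also differed, since 8462 genes (56.6%) were called between shNS and DMSO, and levels in both control groups are given for the genes described at length below; for genes with a difference alone the starting points are not shown.

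Most genes of cholesterol and fatty acid synthesis fell with CS1 and many rose with the FTO hairpin. Cells make these lipids through enzymes whose genes are switched on by the SREBP transcription factors, encoded by SREBF1 and SREBF2, when sterols in the endoplasmic reticulum run low. Of 24 tested genes of cholesterol synthesis and uptake, 21 had a lower response to CS1 than to the hairpin and 1 a higher one, with a median difference of -0.88. CS1 lowered 18 of them and raised 1, the hairpin raised 18 and lowered 2, and 15 fell with CS1 while they rose with the hairpin. The count of 21 lower was the same under median scaling and quantile normalization. The single gene with a higher response to CS1 was PMVK, a kinase of the mevalonate pathway, at 0.91.

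HMGCS1, the enzyme that feeds the mevalonate pathway, stood at 43.9, 44.5, 35.5 and 36.1 TPM with DMSO and 28.8, 28.01 and 23.5 with CS1. In the hairpin cells it stood at 39.7, 41.4 and 40.99 TPM in shNS and 96.7, 106 and 108 TPM in shFTO. Every CS1 library was below every DMSO library, every shFTO library was above every shNS library, and the DMSO and shNS levels lay close together. Its difference of responses was -1.88 (SE 0.12, limma adjusted p = 2.40e-08), made up of -0.56 with CS1 and 1.32 with the hairpin. DHCR7, which completes cholesterol synthesis, had a difference of -1.36, of which -1.06 came from CS1.

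SREBF2, the main SREBP gene of cholesterol synthesis, was itself among the opposite genes. It stood at 82.6, 84.4, 76.3 and 76.6 TPM with DMSO and 60.99, 61.3 and 58.5 with CS1, and at 104, 109 and 105 TPM in shNS and 165, 159 and 160.3 TPM in shFTO. The groups of each arm did not overlap, and shNS libraries lay above the DMSO libraries. Its difference was -1.003 (SE 0.067, limma adjusted p = 2.74e-08). INSIG1, an SREBP target that holds the SREBP precursor in the endoplasmic reticulum, stood at 523, 516, 477 and 471 TPM with DMSO and 84.9, 79.4 and 69.7 with CS1, and at 439, 463 and 479 TPM in shNS and 378, 379.6 and 501 TPM in shFTO. All CS1 libraries lay far below the other 3 groups, while 1 of the shFTO libraries lay above every shNS library and the rest lay below. INSIG1 had -2.66 (SE 0.088, limma adjusted p = 1.97e-11) with CS1 and -0.15 with the hairpin (adjusted p = 0.201, and 0.0331 under median scaling).

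Among 9 tested genes of fatty acid synthesis, 7 had a lower response to CS1 and 0 a higher one, with a median of -1.35. SCD, which places the double bond in newly made fatty acids, was one of the most abundant of them. It stood at 994, 1022, 972 and 993 TPM with DMSO and 390.3, 381 and 369 with CS1, and at 1221, 1298 and 1296 TPM in shNS and 1857, 1941 and 1831 TPM in shFTO. The CS1 libraries were the lowest and the shFTO libraries the highest of the 4 groups, with no overlap. SCD changed by -1.39 with CS1 and by 0.56 with the hairpin, a difference of -1.95 (SE 0.065, limma adjusted p = 4.20e-11). FASN, the fatty acid synthase, followed the same pattern (mean 164 to 65.4 TPM with CS1 and 197 to 274 TPM with the hairpin; difference -1.78), as did FADS2, a desaturase of polyunsaturated fatty acids (difference -1.495). SREBF1, the SREBP gene of fatty acid synthesis, fell by 1.47 with CS1 and had 0.16 with the hairpin (adjusted p = 0.223). ACSS2, which turns acetate into acetyl-CoA, rose by 1.65 with the hairpin and stood 0.29 higher with CS1, a call that was lost under median scaling and quantile normalization (mean 20.8 to 25.7 TPM with CS1 and 39.5 to 126 TPM with the hairpin).

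**Figure D2:**
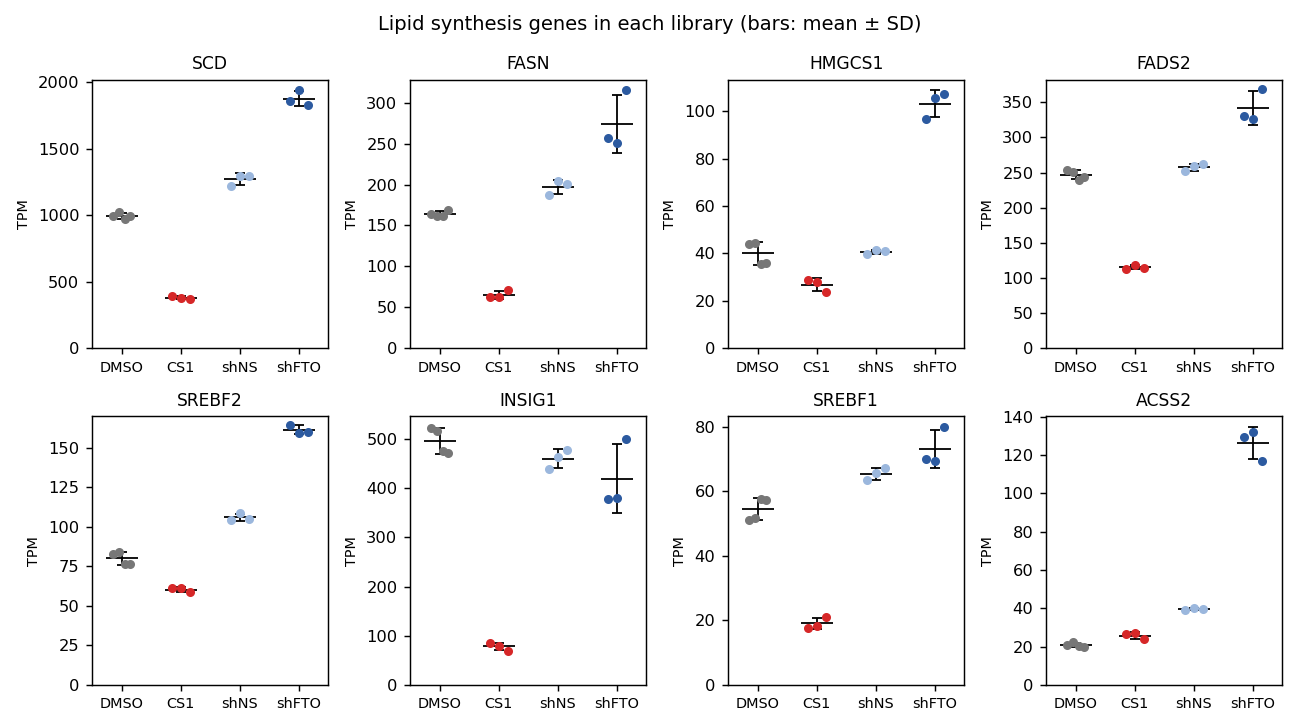
TPM of 8 lipid genes in each library (points) for DMSO, CS1, shNS and shFTO, with the mean and SD as bars; every axis starts at 0. SCD, FASN, FADS2, HMGCS1 and SREBF2 are lowest with CS1 and highest in shFTO, INSIG1 and SREBF1 are low with CS1 alone, and ACSS2 is high in shFTO alone.

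The promoter of SREBF2 is shown because this gene was the only one of the list whose promoter window held the classical sterol regulatory element, the SREBP binding sequence. The window runs from 250 bases before to 50 after the start of transcription in RefSeq (GRCh38.p14, chr22:41832855-41833154, plus strand), and the capitals mark the element.
SREBF2: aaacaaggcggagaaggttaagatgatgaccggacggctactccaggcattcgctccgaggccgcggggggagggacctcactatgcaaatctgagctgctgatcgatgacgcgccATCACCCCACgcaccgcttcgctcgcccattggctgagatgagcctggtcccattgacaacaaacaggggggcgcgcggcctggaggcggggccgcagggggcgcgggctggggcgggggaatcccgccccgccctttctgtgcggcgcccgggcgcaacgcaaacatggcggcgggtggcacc
Promoter windows were found for 18 of the 24 tested genes, 23 windows in all, and the element, searched on both strands, was in 1 of them (4.35%) and in 0.0456% of all 35116 windows. A shorter form of the element (TCACNCCAC, N being any base) was found in the same window alone and in 1.13% of all windows. Both list shares rest on 1 window. A match is a description of the letters and not a test of binding.

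Genes of DNA replication fell with the FTO hairpin, while only some of them fell with CS1. Of 36 tested genes, 35 had a higher response to CS1 than to the hairpin and 0 a lower one, with a median difference of 0.65. The hairpin lowered 35 and raised 0, and its control shNS stood below DMSO for 28 of the 36 and above it for 2 (median -0.33). CS1 raised 18 and lowered 4 on the deposited scale, but raised 9 and lowered 11 under median scaling, so the direction of the list with CS1 was not firm, whereas 34 and 33 differences were still higher under median scaling and quantile normalization. The list holds the MCM helicase and its loaders, the polymerases and primases that copy DNA, the clamp and its loaders, and the enzymes that supply deoxynucleotides.

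CCNE2, a cyclin that starts S phase, had the largest difference of the list. It stood at 48.5, 49.5, 49 and 49.7 TPM with DMSO and 106, 113 and 94.5 with CS1, and at 28.2, 27.5 and 27.2 TPM in shNS and 14.2, 13.4 and 20.8 TPM in shFTO. CS1 libraries were the highest and shFTO libraries the lowest, and no library of 1 group of an arm overlapped the other. The difference was 1.84 (SE 0.15, limma adjusted p = 1.96e-07), with 1.07 after CS1 and -0.77 after the hairpin, from a control level that was lower in shNS than in DMSO. RFC2, a subunit of the clamp loader, stood at 118, 119, 115 and 121 TPM with DMSO and 159, 162 and 144 with CS1, and at 96.3, 99.02 and 95.1 TPM in shNS and 59.1, 57.3 and 63.2 TPM in shFTO. Its groups were separated in both arms, with a difference of 1.07 (SE 0.06, limma adjusted p = 5.90e-09). GINS4, part of the replicative helicase, and ORC1, part of the origin recognition complex, also moved in opposite directions (differences 1.05 and 0.64), the rise of ORC1 with CS1 being lost under median scaling (adjusted p = 0.0907). MCM3, a subunit of the helicase ring, fell with the hairpin by 1.18 and had 0.018 with CS1 (adjusted p = 0.872).

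**Figure D3:**
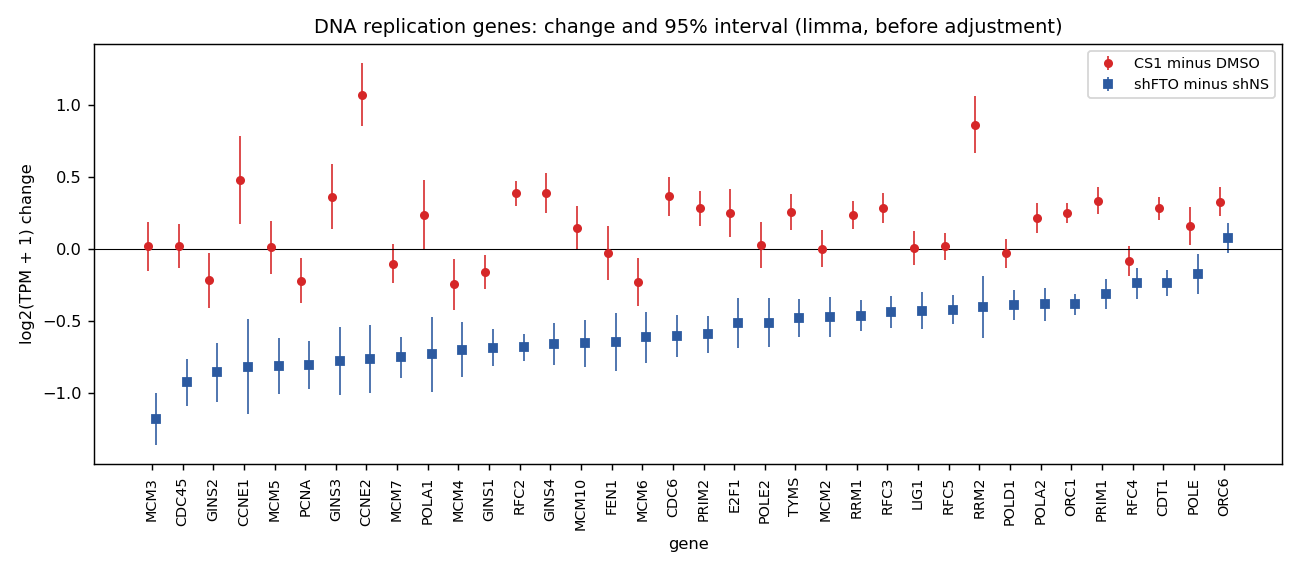
Change on the log2(TPM + 1) scale of each of the 36 DNA replication genes with CS1 (red circles) and with the FTO hairpin (blue squares), with 95% intervals from limma before adjustment, ordered by the hairpin change. The hairpin values are below 0 for 35 genes, and the CS1 values lie around and above 0.

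The promoters of CDC6 and E2F1 are shown because they hold the binding sequence of the E2F factors, which switch on S phase genes. CDC6 is a helicase loader (chr17:40287629-40287928, plus strand) and E2F1 is one of the factors (chr20:33686336-33686635, minus strand), both given from RefSeq on GRCh38.p14 with the E2F sequence in capitals.
CDC6: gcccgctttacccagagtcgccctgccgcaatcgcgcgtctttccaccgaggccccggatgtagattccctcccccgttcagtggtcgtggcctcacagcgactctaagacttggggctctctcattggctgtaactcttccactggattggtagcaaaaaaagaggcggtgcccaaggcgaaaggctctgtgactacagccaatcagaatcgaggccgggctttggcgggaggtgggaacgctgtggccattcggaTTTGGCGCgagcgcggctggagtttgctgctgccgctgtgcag
E2F1: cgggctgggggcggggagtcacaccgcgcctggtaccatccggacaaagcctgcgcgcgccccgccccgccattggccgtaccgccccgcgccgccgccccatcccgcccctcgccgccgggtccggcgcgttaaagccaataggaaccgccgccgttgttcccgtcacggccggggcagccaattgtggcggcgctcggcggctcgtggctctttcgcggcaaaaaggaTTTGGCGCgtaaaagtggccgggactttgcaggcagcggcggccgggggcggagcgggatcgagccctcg
The letters TTTNGCGC were found on either strand in 14 of 40 windows of the replication genes (35.0%). They were in 1.79% of all windows and in 2.59% of the windows of tested genes. CDC6 (mean 66.02 to 85.2 TPM with CS1 and 37.2 to 24.2 TPM with the hairpin) had a difference of 0.97 (SE 0.093, limma adjusted p = 8.98e-07). E2F1 (mean 50.1 to 59.5 TPM with CS1 and 51.8 to 36.2 TPM with the hairpin) had a difference of 0.76 (SE 0.11, limma adjusted p = 5.56e-05), and its change of 0.25 with CS1 was lost under median scaling and quantile normalization.

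DNA repair and mitosis genes gave the same picture in part. Of 24 topoisomerase and repair genes, 17 had a higher response to CS1 and 1 a lower one (median 0.47), and the hairpin lowered 15. CS1 raised 10 of them and lowered 3, against 8 and 9 under median scaling. UNG, which removes uracil from DNA, had the largest fall with the hairpin among the repair genes named here (mean 88.1 to 80.5 TPM with CS1 and 73.4 to 18.3 TPM with the hairpin), with a difference of 1.85 (SE 0.18, limma adjusted p = 8.51e-07); its CS1 value of -0.13 was called under median scaling (-0.31). EXO1, a nuclease of mismatch repair, rose with CS1 and fell with the hairpin (difference 1.304).

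Of 28 mitosis genes, 18 had a higher response to CS1 and 1 a lower one, with a median of 0.34. The hairpin lowered 18 and raised 1, while CS1 raised 15 and lowered 5, or 8 and 12 under median scaling. UBE2C, the enzyme that passes ubiquitin to the anaphase-promoting complex, stood at 64.9, 70.9, 67.4 and 63.6 TPM with DMSO and 90.4, 91.8 and 85.7 with CS1, and at 60.1, 55.3 and 57.3 TPM in shNS and 28.5, 25.4 and 25.1 TPM in shFTO. Its level was highest with CS1 and lowest in shFTO, without overlap, and the difference was 1.52 (SE 0.072, limma adjusted p = 1.01e-09). NUSAP1 and KIF2C, which act on spindle microtubules, and the kinase AURKB also rose with CS1 and fell with the hairpin (differences 0.91, 0.74 and 0.68).

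ATF4 target genes, which supply amino acids and are induced when these are short or when the cell is under stress, rose with CS1, and more of them fell than rose with the hairpin. Of 24 tested genes, 22 had a higher response to CS1 and 0 a lower one, with a median difference of 0.71. CS1 raised 19 and lowered 1, the hairpin raised 4 and lowered 13, and 9 moved in opposite directions. Under quantile normalization 17 were higher and 0 lower. The list also holds ATF4 itself, the 1 gene lowered by CS1, which fell in both arms and further with the hairpin (difference 0.21). The differences of CHAC1 (-0.14) and SLC7A11 (-0.066) were not called. TRIB3, a pseudokinase induced by ATF4, stood at 85.2, 88.8, 91.2 and 97.05 TPM with DMSO and 255, 249 and 236 with CS1, and at 128, 133 and 135 TPM in shNS and 123, 121 and 117 TPM in shFTO. The CS1 libraries were far above the DMSO libraries, and the shFTO libraries lay just below the shNS libraries. TRIB3 rose by 1.44 with CS1 and had -0.13 with the hairpin (adjusted p = 0.0552, and 0.0131 under median scaling), a difference of 1.57 (SE 0.077, limma adjusted p = 1.48e-09).

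PSAT1, an enzyme of serine synthesis, stood at 192, 194, 192 and 194 TPM with DMSO and 238, 242 and 224 with CS1, and at 199, 202 and 202 TPM in shNS and 78.2, 74.8 and 103 TPM in shFTO. The controls of both arms were close to each other, and the shFTO libraries lay far below them. The difference was 1.52 (SE 0.11, limma adjusted p = 7.00e-08), with -1.24 after the hairpin and 0.28 after CS1, the latter lost under median scaling. DDIT4, an inhibitor of mTORC1 signalling, and PCK2, the mitochondrial PEP carboxykinase, rose with CS1 and fell with the hairpin (differences 1.31 and 0.96). SLC7A5, a transporter of large amino acids, fell by 0.95 with the hairpin and had 0.0054 with CS1. The transcription factor gene CEBPB rose by 0.70 with CS1, and its change of -0.11 with the hairpin was lost under quantile normalization.

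**Figure D4:**
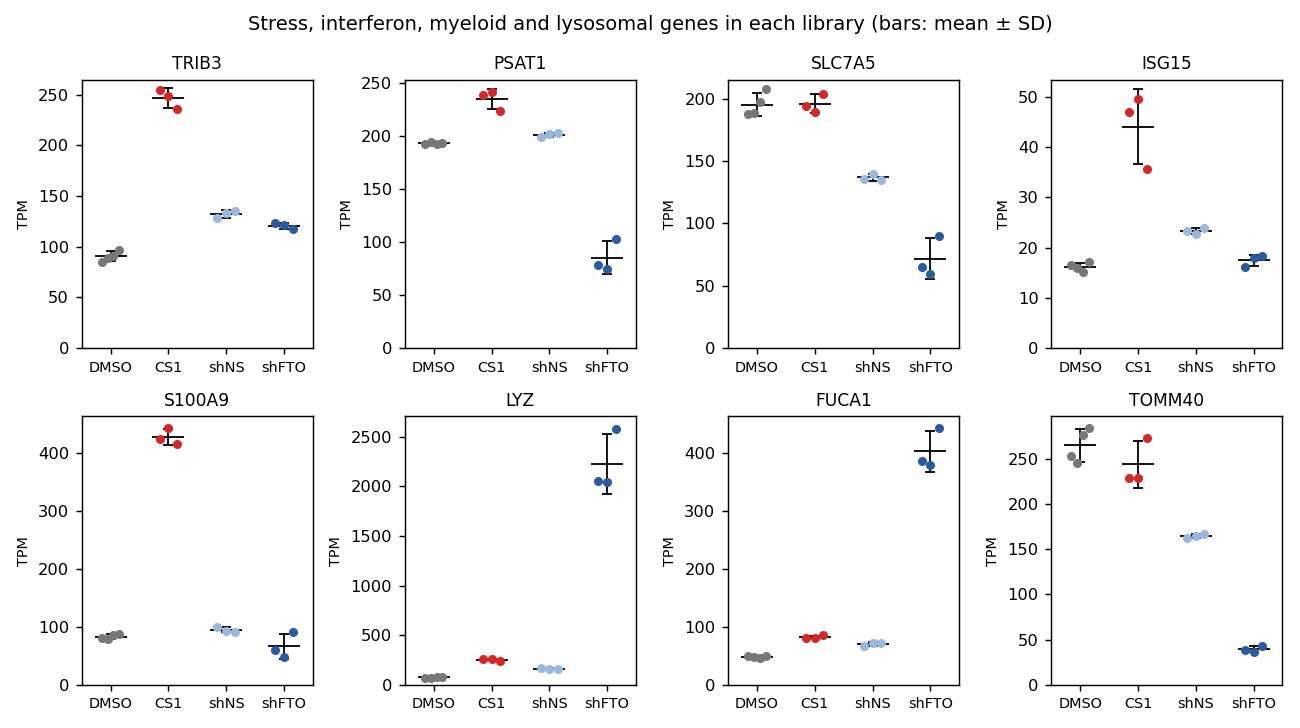
TPM of 8 genes in each library (points), with the mean and SD as bars; every axis starts at 0. TRIB3, ISG15 and S100A9 are highest with CS1, PSAT1, SLC7A5 and TOMM40 are lowest in shFTO, and LYZ and FUCA1 are highest in shFTO.

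Glycolysis genes fell with the hairpin in 12 of 23 cases and rose in 5, while CS1 raised 7 and lowered 3, or 3 and 8 under median scaling. In the difference 16 were higher and 4 lower, with a median of 0.47. PFKP, a phosphofructokinase that earlier work tied to FTO in leukaemia, stood at 115, 110.1, 115 and 116 TPM with DMSO and 134, 132 and 134 with CS1, and at 115, 117 and 114 TPM in shNS and 74.4, 73.5 and 79.3 TPM in shFTO. The shFTO libraries lay far below all others, and the CS1 libraries lay just above the DMSO libraries. PFKP fell by 0.60 with the hairpin, and its change of 0.22 with CS1 was lost under median scaling; the difference was 0.83 (SE 0.044, limma adjusted p = 3.06e-09). GAPDH fell by 0.53 with the hairpin; with CS1 it stood at 0.041, which was -0.14 (called) under median scaling and 0.27 (called) under quantile normalization. ALDOC, an aldolase, went the other way: it fell with CS1 by 1.12 and rose with the hairpin by 0.95 (mean 12.6 to 5.26 TPM with CS1 and 16.1 to 32.2 TPM with the hairpin).

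Nuclear genes of oxidative phosphorylation, the subunits of the respiratory chain and ATP synthase, were lowered by the hairpin in 31 of 40 cases and raised in 1. The response to CS1 was higher for 31 of them and lower for 1 (median 0.27), against 21 and 1 under median scaling. CS1 raised 10 and lowered 8, but 1 and 25 under median scaling. COX6A1 and NDUFA9, subunits of complexes IV and I, had differences of 0.73 and 0.64; their small rises with CS1 (0.11 and 0.15) turned negative, without a call, under median scaling. UQCRC1 of complex III fell with the hairpin by 0.32 and differed by 0.58, and its change of 0.26 with CS1 was lost under median scaling.

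Nucleolar and ribosome assembly genes fell in both arms, further with the hairpin. The hairpin lowered 28 of 29 (median -0.76) and CS1 lowered 15 and raised 2 (median -0.21), and 25 and 0 under median scaling. The response to CS1 was higher, here mostly a smaller fall, for 24 and lower for 1, with a median of 0.45. In shNS 28 of the 29 stood below DMSO and 1 above it (median -0.49). DKC1, the pseudouridine synthase that modifies ribosomal RNA, stood at 227, 229.8, 252 and 249 TPM with DMSO and 226, 219 and 246 with CS1, and at 169.9, 181 and 181 TPM in shNS and 85.5, 85.6 and 93.97 TPM in shFTO. Every shFTO library was below every shNS library, and CS1 and DMSO libraries overlapped. The difference was 0.94 (SE 0.074, limma adjusted p = 1.35e-07), and the change of -0.057 with CS1, not called on the deposited scale, was -0.23 and called under median scaling. RRP12, which acts in ribosome assembly, and TCOF1, a factor in ribosomal RNA transcription, had differences of 0.81 and 0.60. With CS1, TCOF1 had -0.12 on the deposited scale and -0.29, called, under median scaling. MYC, a driver of these genes, fell in both arms (mean 297 to 119 TPM with CS1 and 285 to 159 TPM with the hairpin), by 1.33 with CS1 and 0.87 with the hairpin. Its difference of -0.45 had a 95% interval of -0.88 to -0.03 and did not pass (adjusted p = 0.0708); it passed under median scaling (-0.55, adjusted p = 0.0461), under quantile normalization (-0.62, adjusted p = 0.0122) and without ribosomal RNA and mitochondrial-like entries (-0.51, adjusted p = 0.0438). It was -0.58 (adjusted p = 0.0267) without the third CS1 library, -0.60 (adjusted p = 0.0175) without the second shFTO library and -0.24 (adjusted p = 0.158) without the third shFTO library.

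Chaperones of the endoplasmic reticulum rose with the hairpin, by more than with CS1. The hairpin raised 16 of 19 and lowered 0 (median 0.54). CS1 raised 11 and lowered 5, or 4 and 8 under median scaling. The response to CS1 was lower for 12 and higher for 0. The control levels differed, since shNS stood below DMSO for 15 of the 19 and above it for 1 (median -0.31). P4HB, a protein disulphide isomerase, stood at 1566, 1623, 1596 and 1635 TPM with DMSO and 1434, 1406 and 1528 with CS1, and at 1582, 1644 and 1656 TPM in shNS and 2769, 2723 and 2589 TPM in shFTO. The shFTO libraries stood apart above the other 3 groups, and the difference was -0.87 (SE 0.05, limma adjusted p = 7.85e-09). PDIA6, a further isomerase, fell by 0.13 with CS1 and rose by 0.67 with the hairpin, and HYOU1, a chaperone related to the heat shock proteins, rose by 0.66 with the hairpin and stood at -0.0055 with CS1 (adjusted p = 0.936, and -0.18, called, under median scaling).

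Lysosomal genes rose in both arms, by unequal amounts. CS1 raised 24 of 27 and lowered 0, and the hairpin raised 23 and lowered 2. In the difference of responses 13 were lower and 6 higher. FUCA1, a lysosomal fucosidase, stood at 49.01, 48.5, 46.8 and 49.7 TPM with DMSO and 81.5, 81.5 and 85.6 with CS1, and at 67, 72.8 and 72.5 TPM in shNS and 387, 379.9 and 444 TPM in shFTO. The CS1 libraries lay above the DMSO and shNS libraries, and the shFTO libraries lay far above all. FUCA1 rose by 0.76 with CS1 and 2.49 with the hairpin, and the difference was -1.73 (SE 0.077, limma adjusted p = 6.96e-10). CTSB, the protease cathepsin B, had 0.59 with CS1 and 1.25 with the hairpin, and GAA, the acid glucosidase that breaks down glycogen, had 0.12 and 1.14; the CS1 value of GAA was -0.054, not called, under median scaling.

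Most tested markers of mature monocytes and macrophages rose in both arms, but which members led differed. Of 26 list members, CD14, FCGR3A, CD163, MRC1 and VCAN did not reach 1 TPM in at least 3 columns and were not tested. Among the 21 tested members, CS1 raised 21 and lowered 0, and the hairpin raised 17 and lowered 2. The response to CS1 was larger or more positive for 11 and smaller for 6 (median 0.34). S100A9, a partner in the calprotectin pair of neutrophils and monocytes, stood at 80.9, 78.3, 85.8 and 87.9 TPM with DMSO and 425, 444 and 415 with CS1, and at 99.9, 92.6 and 91.8 TPM in shNS and 60.5, 48.8 and 90.7 TPM in shFTO. The CS1 libraries lay far above all others, and the shFTO libraries lay below the shNS libraries. S100A9 rose by 2.35 with CS1 and fell by 0.55 with the hairpin, a difference of 2.897 (SE 0.20, limma adjusted p = 3.46e-08). Its partner S100A8 rose by 3.096 with CS1 and had 0.19 with the hairpin (adjusted p = 0.447; mean 6.803 to 64.9 TPM with CS1 and 21.1 to 25.2 TPM with the hairpin). FCN1, a monocyte lectin, also rose with CS1 and fell with the hairpin (difference 0.88).

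LYZ, the lysozyme gene and a classical monocyte marker, had the opposite imbalance. It stood at 71.3, 70.03, 81.9 and 78.2 TPM with DMSO and 259, 258 and 244 with CS1, and at 166, 163 and 159 TPM in shNS and 2049.7, 2048 and 2579 TPM in shFTO. All shFTO libraries were above 2000 TPM, and the shNS libraries were already above the DMSO libraries. LYZ rose by 1.74 with CS1 and by 3.76 with the hairpin, a difference of -2.02 (SE 0.11, limma adjusted p = 3.06e-09). SERPINB2, a plasminogen activator inhibitor of monocytes, rose by 2.005 and 4.36 (mean 12.9 to 54.6 TPM with CS1 and 4.23 to 109.7 TPM with the hairpin). ITGB2, the common chain of the leukocyte integrins, and FCGR2A, an immunoglobulin receptor, rose in both arms and more with the hairpin (differences -0.54 and -1.02).

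CEBPE, a transcription factor of late granulocyte and macrophage maturation, stood at 30.3, 29.8, 33.4 and 31.5 TPM with DMSO and 76.1, 74.4 and 67.9 with CS1, and at 29.4, 28.9 and 28.6 TPM in shNS and 16.4, 17.3 and 17.8 TPM in shFTO. It was highest with CS1 and lowest in shFTO, without overlap within an arm, and the difference was 1.92 (SE 0.068, limma adjusted p = 6.20e-11). CEBPA, a factor of earlier myeloid cells, fell in both arms (mean 303 to 254 TPM with CS1 and 253 to 218 TPM with the hairpin), with a difference of -0.041 and a 95% interval of -0.14 to 0.06 on the deposited scale, and -0.16 (adjusted p = 0.00656) under quantile normalization. Among 11 promyelocyte granule genes, CS1 raised 6 and lowered 3, and the hairpin raised 7 and lowered 2. In the difference 1 was higher and 6 were lower, beside 31.0% and 18.3% of all tested genes. The higher one was SRGN, the proteoglycan core of the granules (0.57). ELANE, neutrophil elastase, fell with CS1 by 1.24 and with the hairpin by 0.30, the latter being lost under quantile normalization. In a bulk sample, fewer cells of a type and less RNA per cell cannot be told apart.

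Markers of other cell types were examined beside these genes. All 13 myeloid markers reached 1 TPM in some library; CD33 was never below 65.8 TPM. Of 12 lymphocyte markers, 6 reached 1 TPM in some library, while CD3E was at 0 in all libraries and CD3D, CD8A, MS4A1 and CD79B stayed at or below 0.24 TPM. Of 14 erythroid and megakaryocyte markers 3 reached 1 TPM, and of 11 epithelial and fibroblast markers 4 did. NKG7, a granule protein of cytotoxic lymphocytes, was the exception in abundance. It stood at 264, 259, 266 and 277 TPM with DMSO and 474, 485 and 453 with CS1, and at 442, 461 and 459.8 TPM in shNS and 252, 235 and 234 TPM in shFTO. CS1 and shNS libraries were high and shFTO and DMSO libraries low, and the difference was 1.74 (SE 0.052, limma adjusted p = 1.77e-11). The summed lymphocyte markers ran from 275 to 291 TPM with DMSO, 470.4 to 508 with CS1, 457 to 476 in shNS and 256 to 273 in shFTO. NKG7 made up nearly all of these sums, the other members being at most 8.86 TPM each, and their part in the results was not tested.

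Interferon-stimulated genes rose in both arms and more with CS1. CS1 raised 23 of 25 and lowered 0 (median 0.92), and the hairpin raised 16 and lowered 1 (median 0.33). In the difference 14 were higher and 2 lower, and under median scaling 14 and 4. ISG15, a ubiquitin-like protein induced by interferon, stood at 16.5, 15.9, 15.2 and 17.1 TPM with DMSO and 47.04, 49.6 and 35.6 with CS1, and at 23.4, 22.8 and 23.97 TPM in shNS and 16.2, 18.02 and 18.2 TPM in shFTO. CS1 libraries lay above all others, and shFTO libraries below the shNS libraries. ISG15 was the 1 gene of the list called up with CS1 and down with the hairpin, with a difference of 1.78 (SE 0.13, limma adjusted p = 6.19e-08). IFIT2 and IFIT3, antiviral proteins, rose by 3.51 and 2.09 with CS1 (mean 1.44 to 27.3 TPM with CS1 and 2.09 to 4.26 TPM with the hairpin for IFIT2), with 0.77 (called) and 0.10 (not called) after the hairpin.

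The promoter of ISG15 is shown as that of the gene of this group that moved in opposite directions (RefSeq, GRCh38.p14, chr1:1013247-1013546, plus strand), with 2 overlapping matches to the interferon-stimulated response element in capitals.
ISG15: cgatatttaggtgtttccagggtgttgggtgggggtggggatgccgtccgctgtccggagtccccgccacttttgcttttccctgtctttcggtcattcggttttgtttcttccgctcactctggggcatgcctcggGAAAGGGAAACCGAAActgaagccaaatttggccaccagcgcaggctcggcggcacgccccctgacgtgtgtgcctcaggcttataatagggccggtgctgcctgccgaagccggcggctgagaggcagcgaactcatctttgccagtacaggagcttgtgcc
The element (GAAA, then 2 bases of any kind, then GAAA) was found on either strand in 18 of 26 windows of the interferon list (69.2%), which belonged to 14 of 19 genes with a window, and in 3.57% of all windows.

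Inflammatory and immediate early genes were likewise raised more by CS1. Of 20 cytokine and NF-kB genes, CS1 raised 17 and the hairpin 13, and the response to CS1 was higher for 12 and lower for 0, or 11 and 2 under quantile normalization. IL1RN, the natural antagonist of the interleukin 1 receptor, rose by 2.77 with CS1 and by 1.35 with the hairpin (mean 6.305 to 48.9 TPM with CS1 and 2.59 to 8.197 TPM with the hairpin). TNFAIP3, a feedback inhibitor of NF-kB, rose by 1.17 with CS1 and had 0.061 with the hairpin (adjusted p = 0.457). Of 22 immediate early and AP-1 genes, 13 had a higher response to CS1 and 0 a lower one; CS1 raised 16, and the hairpin raised 8 and lowered 5. FOSL2, an AP-1 subunit, rose by 1.49 and 0.48, and DUSP4, a phosphatase that turns off MAP kinases, rose by 1.08 with CS1 and had 0.054 with the hairpin. ATF3, a stress factor of both this list and the ATF4 list, rose by 1.89 with CS1 (mean 2.55 to 12.2 TPM with CS1 and 4.35 to 5.497 TPM with the hairpin).

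p53 targets were split. The response to CS1 was higher for 11 of 25 and lower for 6, or 10 and 9 under median scaling. Over all tested genes 31.0% were higher and 18.3% lower on the deposited scale, so a split was not particular to this list. CDKN1A, the cell cycle inhibitor p21, stood at 6.82, 6.51, 6.04 and 6.85 TPM with DMSO and 57.7, 60.6 and 43.2 with CS1, and at 15.4, 14.8 and 14.2 TPM in shNS and 24.9, 23.3 and 34.1 TPM in shFTO. Both arms rose without overlap, CS1 further, from a lower control level, and the difference was 2.02 (SE 0.19, limma adjusted p = 8.51e-07). GDF15, a stress-induced cytokine, rose by 4.096 with CS1 and 1.32 with the hairpin (mean 0.287 to 20.9 TPM with CS1 and 5.4 to 15.1 TPM with the hairpin). Its DMSO level was below 1 TPM, and its difference of 2.77 was 1.34 with a pseudocount of 5 and 4.44 with a pseudocount of 0.1. CCNG1, a cyclin induced by p53, went the other way, with 0.61 after the hairpin and -0.069 after CS1 (adjusted p = 0.285), the latter called under median scaling (-0.25).

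Among 27 apoptosis regulators, 15 had a higher response to CS1 and 2 a lower one, or 12 and 5 under quantile normalization. Of all tested genes 31.0% were higher and 18.3% lower. CS1 raised 19 of the regulators and lowered 0, or 10 and 3 under median scaling, and the hairpin raised 10 and lowered 9. BAK1, which opens the mitochondrial membrane, rose with CS1 and fell with the hairpin (difference 1.002), and CASP8, the initiator caspase of death receptors, rose by 0.74 with CS1 (0.0087 with the hairpin). Replication-dependent histones have main transcripts that lack a poly(A) tail and are therefore poorly sampled in these libraries. Of 21 tested, 11 had a lower response to CS1 and 0 a higher one, beside 18.3% and 31.0% of all tested genes. CS1 lowered 16 and raised 0, and the hairpin lowered 6 and raised 3. HIST1H1C had -1.35 with CS1 and -0.16 with the hairpin.

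Of 6 genes that earlier work tied to FTO in leukaemia, 4 had a higher response to CS1 and 0 a lower one, against 3 and 1 under median scaling and 3 and 2 under quantile normalization. Besides PFKP, MYC and CEBPA above, ASB2, a ubiquitin ligase subunit induced in differentiation, rose by 0.75 with CS1 and by 0.16 with the hairpin, the latter lost under median scaling. RARA, the retinoic acid receptor, rose by 0.60 with CS1 and had 0.047 with the hairpin (adjusted p = 0.583). LDHB, a lactate dehydrogenase, fell by 0.16 and by 0.39, and its difference of 0.23 was lost under median scaling (adjusted p = 0.0937) and quantile normalization. Over all tested genes, 31.0% of the differences were called higher and 18.3% lower. Among 20 writers, erasers and readers of m6A, 4 differences were higher and 3 lower, or 3 and 8 under median scaling. After FTO itself, the reader gene IGF2BP3 had the largest, at -1.01 (SE 0.10, limma adjusted p = 7.43e-07) (mean 36.98 to 36.4 TPM with CS1 and 21.4 to 43.7 TPM with the hairpin); its CS1 value was called under median scaling (-0.20).

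Genes for surface ligands and receptors that restrain immune cells rose with the hairpin in 10 of 12 cases and with CS1 in 7, and the response to CS1 was lower for 7 and higher for 1. Under median scaling CS1 raised 4 and lowered 2. TNFRSF14, a ligand of the inhibitory receptor BTLA, rose by 1.53 with the hairpin and had -0.045 with CS1 (mean 16.6 to 15.8 TPM with CS1 and 32.7 to 96.5 TPM with the hairpin). LAIR1, a collagen receptor that inhibits leukocytes, was the exception, with 0.95 after CS1 and -0.075 after the hairpin, called at -0.16 under median scaling. Among 15 HOX and self-renewal genes 2 differences were higher and 4 lower, beside 31.0% and 18.3% of all tested genes. BMI1, a Polycomb protein of stem cell self-renewal, stood at 416, 407, 362 and 373 TPM with DMSO and 259.7, 248 and 238 with CS1, and at 137, 153 and 149.8 TPM in shNS and 221, 238 and 217 TPM in shFTO. It fell with CS1 and rose with the hairpin without overlap, from a control level that was far lower in shNS, and the difference was -1.26 (SE 0.10, limma adjusted p = 1.10e-07). MEIS1, a HOX cofactor, moved in the same way (-0.62).

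Some of the most unequal genes belonged to no list. Among genes for which the hairpin alone passed, TOMM40, the pore through which proteins enter mitochondria, stood at 253, 246, 276 and 285 TPM with DMSO and 229, 229 and 273 with CS1, and at 162, 165 and 167 TPM in shNS and 38.1, 36.6 and 43.2 TPM in shFTO. The shFTO libraries were far below the rest, CS1 and DMSO overlapped, and the difference was 1.92 (SE 0.10, limma adjusted p = 4.36e-09). For MIEN1, too, the shFTO libraries were low (mean 31.6 to 31.4 TPM with CS1 and 28.4 to 6.903 TPM with the hairpin; 1.89). Under median scaling the CS1 values of TOMM40 (-0.30) and MIEN1 (-0.19) were called as well. ARHGDIA, an inhibitor of small GTPases, and TRMT112, a cofactor of methyltransferases, fell in both arms but much further with the hairpin (differences 1.82 and 1.51). Among genes that fell with CS1 and rose with the hairpin, CAB39L, a scaffold of the kinase LKB1, stood at 136, 128, 131 and 133 TPM with DMSO and 49.5, 50.3 and 53.02 with CS1, and at 233, 239 and 253 TPM in shNS and 542, 613 and 419.6 TPM in shFTO. Its groups lay apart in both arms, with a difference of -2.45 (SE 0.14, limma adjusted p = 8.06e-09). PPARGC1A, a coactivator of mitochondrial genes, followed (mean 9.38 to 6.33 TPM with CS1 and 4.57 to 16.2 TPM with the hairpin; -2.11).

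Proteases of the extracellular matrix were unequal in different directions. MMP1, the interstitial collagenase, stood at 7.15, 6.44, 8.25 and 8.3 TPM with DMSO and 189, 215 and 137 with CS1, and at 48.5, 47.7 and 47.3 TPM in shNS and 64.3, 51.1 and 94.8 TPM in shFTO. CS1 libraries lay above all others, the shFTO libraries lay just above to well above the shNS libraries, and the shNS libraries already lay above the DMSO libraries. MMP1 rose by 4.39 with CS1 and had 0.50 with the hairpin (adjusted p = 0.0445, lost under median scaling), a difference of 3.896 (SE 0.27, limma adjusted p = 4.20e-08). MMP8, the collagenase of neutrophils, rose with CS1 by 2.67 and fell with the hairpin by 0.79 (mean 4.03 to 31.5 TPM with CS1 and 2.25 to 0.883 TPM with the hairpin). MMP2, a gelatinase, had 1.82 with the hairpin and 0.30 with CS1, the latter lost under median scaling.

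**Figure D5:**
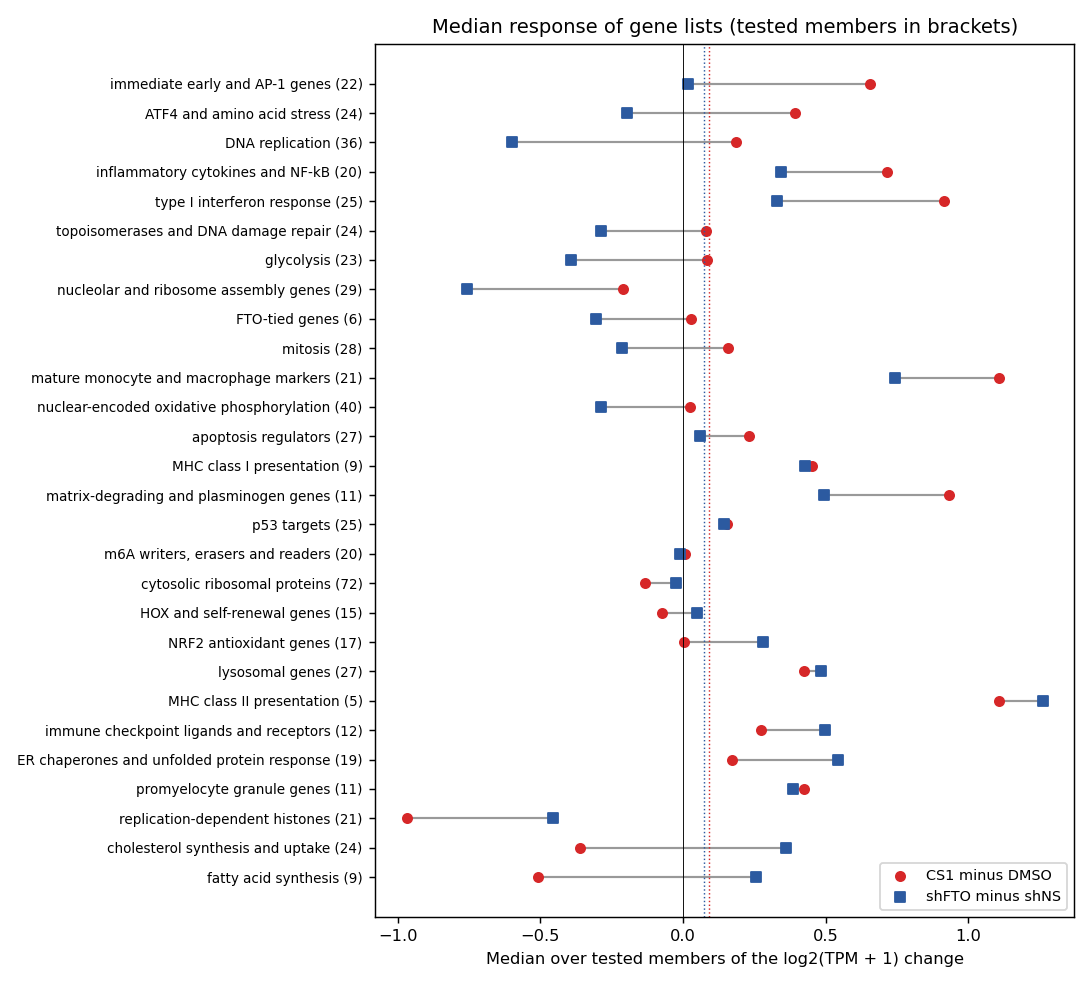
Median change of the tested members of 28 gene lists with CS1 (red circles) and with the FTO hairpin (blue squares), on the log2(TPM + 1) scale, ordered by the median difference of responses; dotted lines mark the medians of all tested genes. The squares lie right of the circles for cholesterol and fatty acid synthesis and left of them for DNA replication, ATF4 targets and immediate early genes.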

How the data were processed

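The deposited values are TPM for 26830 entries in 16 libraries, made by the authors with RSEM 1.2.31 on GRCh38, per the submitters' processing notes. Which aligner and gene models were used is not given in the sources used here. Libraries were assigned to groups by their labels, and 0 pairs held identical values. TPM hold no counts, so depth is unknown.

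Values were used as log2(TPM + 1) for the 14951 entries that reached 1 TPM in 3 or more of 16 columns, 13683 of them with a symbol in GENCODE 29. Limma 3.58.1 in R 4.3.3 (lmFit, eBayes with trend) fitted 1 mean per group, two-sided, with Benjamini-Hochberg adjustment over all tested genes and a threshold of 0.05. Sums, sequence searches and plots used Python 3.11.15, numpy 2.4.6, pandas 2.3.3 and matplotlib 3.10.9. The fit was tested on simulated data.

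The members and the 32 gene lists were chosen with earlier results of these data known. Named genes were FTO, the 6 largest differences in each direction of every class (mean of at least 5 TPM, libraries apart), up to 4 members per list with the smallest adjusted p, and the FTO-tied genes. FASN, CDC6, E2F1, MCM3, PSAT1, PMVK and SLC7A5 were named after their values were seen, and not every gene the rule selects is reported here. Alternatives covered the pseudocount, the filter, 3 scalings, the libraries fitted, the trend, a replicate term and each library left out. Promoter sequences are from RefSeq.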

Additional observations from a re-analysis of the deposited data

Results flagged for a closer look

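With 4 DMSO libraries, a value far from the other 3 was looked for in each of 122 genes, most of them named here; chance alone marks about 1 in 20 groups, and 2 genes were marked, fewer than that share of the genes looked at. ALDOC stood at 13.78 TPM in 1 DMSO library and between 12.12 and 12.2 TPM in the others. TIMP2, an inhibitor of matrix proteases, stood at 35.13 TPM in 1 DMSO library and between 32.4 and 32.82 TPM in the others. In both genes the DMSO and CS1 libraries did not overlap.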

How the results depend on the processing

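Under median scaling and quantile normalization, genes raised by CS1 were 3201 and 3718, genes lowered by CS1 5246 and 4267, and genes that fell with CS1 and rose with the hairpin 877 and 834, while genes with the reverse pattern were 730 under median scaling. Requiring 5 TPM left 127 genes called in the difference with neither arm called. Leaving out each of the 13 libraries in turn gave 4253 to 4900 genes with a higher and 2343 to 2857 with a lower response to CS1, 4826 to 5807 genes up and 1728 to 2342 down with CS1, and 4101 to 4929 up and 3254 to 3839 down with the hairpin. Between shNS and DMSO it gave 2957 to 3547 up and 4425 to 5173 down. The opposite classes held 1024 to 1372 and 372 to 481 genes, the same-direction classes 425 to 704 (larger with CS1) and 600 to 1118 (larger with the hairpin), the single-arm classes 1553 to 1924 and 1965 to 2728, neither arm 152 to 259, and closely matched genes 1839 to 2327. Several of these upper ends came from leaving out the third shFTO library. They were 4900 higher differences, 3839 falls with the hairpin, 1372 and 481 opposite genes and 1118 genes with the larger hairpin change. The upper ends for CS1 (5807 and 2342) and for shNS against DMSO (3547 and 5173) came from it too. These last contrasts hold no shFTO library, which enters them only through the spread estimated over all groups. The cause of these shifts was not tested.

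The replicate numbers gave no clear pairing of the libraries: r between deviations of same-numbered libraries lay between -0.0556 and 0.101. Of 36 best matches 16 had the same number. Each match was picked from 3 or 4 libraries, so some share a number by chance, and the check cannot exclude a weak pairing. With the replicate number as a block, 4628 genes were higher and 2872 lower, 1164 and 473 were in the opposite classes, and 254 had neither arm called; the difference of MYC passed with it (-0.42, adjusted p = 0.0296). The block gives DMSO replicate 4 a level of its own, which takes it out of the comparison.

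Signs of small, uncalled differences turned for HLA-DMB (0.15 with a pseudocount of 0.1), KLF1 (0.021 with a pseudocount of 0.1, 0.084 under quantile normalization, 0.024 under the replicate block and -0.078 to 0.081 with a library left out) and KRT18 (-0.24 to 0.012 with a library left out). FTL, called at -0.42, was 0.46 and not called under quantile normalization. HIST1H1E, called at -1.05, was -0.39 and not called (adjusted p = 0.0926) with a pseudocount of 5. Without depth, no counting limit can be set for genes with low TPM.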

Other observations

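Of 17 tested NRF2 antioxidant genes, 2 had a higher response to CS1 and 7 a lower one, beside 31.0% and 18.3% of all tested genes. CS1 raised 5 and lowered 6, or 3 and 9 under median scaling, and the hairpin raised 9 and lowered 3. HMOX1, which breaks down haem, stood at 10.4, 9.66, 12.1 and 12.4 TPM with DMSO and 37.4, 41.1 and 25.6 with CS1, and at 11.1, 11.2 and 12.3 TPM in shNS and 8.49, 8.53 and 14.1 TPM in shFTO; only the CS1 libraries were high, and the difference was 1.71 (SE 0.24, limma adjusted p = 3.60e-05). FTH1, the ferritin heavy chain, rose in both arms and more with CS1 (mean 559 to 1358 TPM with CS1 and 1348 to 2167 TPM with the hairpin; difference 0.59). TKT, a transketolase of the pentose phosphate pathway, fell with CS1 and rose with the hairpin (difference -0.64).

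Of 9 genes of MHC class I presentation, CS1 raised 7 and the hairpin raised 5 and lowered 2. In the difference 5 were higher and 0 lower, or 2 and 2 under median scaling. Of 5 genes of class II, CS1 raised 4 and the hairpin 4, or 3 under median scaling. Among these 1 difference was higher and 1 lower. Of all tested genes CS1 raised 37.5%, and the hairpin raised 31.9% and lowered 24.5%. CD74, the invariant chain of MHC class II, had 1.12 with CS1 and 0.22 with the hairpin, the latter lost under median scaling (0.14, adjusted p = 0.0872), and CTSS, the protease that trims that chain, had 0.49 and 1.26. PSMB8, a subunit of the immunoproteasome, rose with CS1 and fell with the hairpin (difference 0.79). Of 72 cytosolic ribosomal protein genes, 3 differences were higher and 27 lower, and 17 and 26 under quantile normalization. Over all tested genes 31.0% were higher and 18.3% lower on the deposited scale.

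CYP1A1 is a detoxifying enzyme (mean 1.78 to 11.6 TPM with CS1 and 2.03 to 1.903 TPM with the hairpin). CD52 is a surface glycoprotein of leukocytes (mean 2.39 to 30.3 TPM with CS1 and 46.02 to 39.7 TPM with the hairpin), and its shNS mean exceeded that with CS1. LIMA1, an actin-binding protein, and PDYN, the precursor of dynorphin, rose with the hairpin (mean 25.2 to 26.7 TPM with CS1 and 8.13 to 30.5 TPM with the hairpin for LIMA1). EEF1E1, an auxiliary protein of the tRNA synthetase complex, fell from 11.1, 9.82 and 15.5 TPM in shNS to 0, 0.77 and 0 TPM in shFTO, where 2 libraries list it at 0, and stood at 23.1, 21.4, 28.2 and 24.2 TPM with DMSO and 10.7, 13.2 and 17.1 with CS1. DEFA1 and DEFA1B, near-identical defensin genes, carry the same values in every library and so are uncertain as single genes. Short RNA entries such as MIR6832 are poorly sampled by poly(A) selection and are not described.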
